A study of Mus musculus with 18 samples.

Results

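The genes described here are 39 genes of the unfolded protein response and the integrated stress response, chosen as a list of symbols and matched to the gene identifiers of the deposited count table. All 39 matched, out of 57180 identifiers, and all 39 were among the 16738 genes with enough counts to test. Their RNA was measured in the hippocampus of 18 adolescent male C57BL/6J wild-type mice, in 1 library per mouse and 6 mice in each of 3 groups. Exercised CSDS mice went through chronic social defeat stress (CSDS), in which an intruder is repeatedly attacked by an aggressive resident, and trained aerobically from 1 week before the defeat until it ended. CSDS mice went through the defeat without training, and control mice received no treatment. Training without defeat was not analysed here, so training was compared only among defeated mice or together with defeat against controls.

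A cell that makes more secreted or membrane protein than its endoplasmic reticulum (ER) can fold switches on the unfolded protein response. Its 3 sensors in the ER membrane are the products of Ern1, Atf6 and Eif2ak3: the IRE1 nuclease splices Xbp1 mRNA, ATF6 is cut free as a transcription factor, and the PERK kinase phosphorylates the translation factor eIF2. Phosphorylated eIF2, which the amino acid sensor kinase GCN2 (Eif2ak4) also makes, slows translation in general but lets Atf4 mRNA be translated, and ATF4 then induces amino acid synthesis and transport genes; this arm is the integrated stress response. In the hippocampus eIF2 phosphorylation is known for its part in the control of protein synthesis behind long-term memory. Many of these steps act on proteins or on splicing, which gene-level counts do not measure: total Xbp1 counts do not separate spliced from unspliced mRNA.

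The libraries held 18911080 to 24136591 estimated counts, with 1.71% to 5.10% of them from mitochondrially encoded genes, and all carry the same batch label. Levels are in CPM, that is counts after scaling by library size adjusted by TMM, as mean ± SD over 6 mice unless stated. For a log2 fold change, the value after ± is its standard error. Markers of hippocampal neurons (8 genes) summed to 6506 to 13538 CPM over all libraries. This sum does not by itself show that the labelled tissue was present. Control replicate 2 had a sum of 10674 CPM but the lowest mean log2 level of these markers (7.35) of all mice. Control replicate 2 stood apart: 10 neocortical markers summed to 863 CPM there and to at most 292 in any other library, and 10 dentate granule cell markers to 215 CPM against at least 416. Exercised replicate 4 had the highest sums of the hippocampal neuron, dentate granule cell (866 CPM, at most 621 elsewhere) and microglia markers of all 18. Values of both for the genes concerned are given with the results. Thalamic markers (8 genes) summed to 953 CPM in exercised replicate 6, 636 in control replicate 3, 336 in exercised replicate 3 and 317 in control replicate 1, and to at most 151 elsewhere. In bulk tissue, fewer cells of a type and less RNA per cell cannot be told apart.

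Short DNA motifs link several of these genes to the response, and they are shown first because they are the regulatory letters through which ATF6, XBP1 and ATF4 are known to act. Of the 39 genes, 35 had a promoter in the RefSeq table (build GRCm38.p6), taken as the 250 bases before to the 50 bases after the transcription start, and both strands were searched. The ER stress response element, CCAAT followed after any 9 bases by CCACG and bound by NF-Y together with ATF6 or XBP1, was present in 5 of the 35 (14.3%), against 37 of 27025 genes (0.137%). The 5 genes were the lectin chaperones Calr and Canx, the disulfide isomerase Pdia6, the ER protein Creld2 and the ubiquitin ligase Syvn1. Their sequences follow, each on the strand of its gene, with 14 flanking bases and the element in capitals; in Calr and Creld2 the element lies on the opposite strand and is therefore read as its reverse complement.
Calr, chr8:84847061-84847107, minus strand: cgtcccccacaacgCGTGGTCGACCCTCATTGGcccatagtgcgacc
Canx, chr11:50325786-50325832, minus strand: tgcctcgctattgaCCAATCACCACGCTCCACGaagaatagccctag
Pdia6, chr12:17266477-17266523, plus strand: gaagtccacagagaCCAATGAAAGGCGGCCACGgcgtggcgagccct
Creld2, chr15:88819506-88819552, plus strand: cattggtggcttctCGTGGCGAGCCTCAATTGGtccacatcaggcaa
Syvn1, chr19:6046518-6046564, plus strand: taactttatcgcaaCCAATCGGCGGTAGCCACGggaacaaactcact

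The shorter variant of that element, ATTGG followed after any 1 base by CCACG, was found in Herpud1 alone among these genes, a membrane protein that helps the ER dispose of misfolded proteins, and in 12 of the 27025 genes (0.0444%). The composite C/EBP and ATF site bound by ATF4, TTGCATCA, was found in 4 of the 35 genes (11.4%), against 279 of all genes (1.03%). These were the stress factor Atf3, the glutathione-degrading enzyme Chac1, the cystine transporter Slc7a11 with a site on each strand, and again Herpud1. The sequences, with the motif in capitals, show both elements of Herpud1 within its 250 upstream bases.
Herpud1, ATF6 and XBP1 element, chr8:94386363-94386401, plus strand: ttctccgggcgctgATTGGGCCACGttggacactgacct
Herpud1, ATF4 element, chr8:94386303-94386338, plus strand: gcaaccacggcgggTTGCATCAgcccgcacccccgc
Atf3, ATF4 element, chr1:191183422-191183457, minus strand: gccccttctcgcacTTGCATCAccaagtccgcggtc
Chac1, ATF4 element, chr2:119351035-119351070, plus strand: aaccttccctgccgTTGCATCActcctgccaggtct
Slc7a11, ATF4 element, chr3:50443639-50443674, minus strand: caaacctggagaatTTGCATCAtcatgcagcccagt
The cyclic AMP response element TGACGTCA was present in Ppp1r15a only (549 of all genes, 2.03%), and the XBP1 site TGACGTGG in 0 of the 35 (193 of all genes, 0.714%). A match is a description of these letters and does not show that a factor binds there, and a promoter without a match may hold such a site outside this window.

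Most of the genes were expressed above the median gene and varied less than it. Their median level over all mice was 37.5 CPM, against 16.8 CPM for all genes tested, and 30 of the 39 lay above that median. The median SD within groups was 0.218 on the log2 scale against 0.280 for all genes, and 8 of the 39 varied more than the median gene. Genes of like level were not compared. Per kilobase of the longest coding transcript, Calr was the most abundant at 182 CPM per kb, followed by Canx at 85.8, Pdia3 at 60.3 and Atf4 at 54.3, while the ATF4 targets Trib3 and Atf3 were lowest at 0.204 and 0.532 CPM per kb. ER folding genes and ATF4 mRNA were thus present in quantity in all 3 groups, while Trib3 and Atf3 were near the lower limit of counting.

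Among the sensors and eIF2 regulators, the IRE1 gene Ern1 was at 13.1 ± 1.94 CPM in exercised CSDS mice, 11.9 ± 1.66 in CSDS mice and 12.3 ± 2.604 in controls. Atf6 was at 82.5 ± 13.8 CPM in exercised CSDS mice, 80.9 ± 2.02 in CSDS mice and 85.6 ± 9.62 in controls. Eif2ak3, which encodes PERK, was at 29.9 ± 2.55 CPM in exercised CSDS mice, 30.7 ± 3.18 in CSDS mice and 31.03 ± 1.97 in controls. For each of these 3 sensors the group means differed by less than the greatest of their SDs. The GCN2 gene Eif2ak4 was at 20.8 ± 2.54 CPM in exercised CSDS mice, 22.1 ± 3.35 in CSDS mice and 20.3 ± 4.01 in controls. Eif2s1, the eIF2 subunit that the kinases phosphorylate, was at 37.4 ± 8.397 CPM in exercised CSDS mice, 33.6 ± 6.03 in CSDS mice and 33.9 ± 6.29 in controls. Ppp1r15a, the stress-induced phosphatase subunit that removes this phosphate, was at 15.6 ± 3.06 CPM in exercised CSDS mice, 17.9 ± 2.78 in CSDS mice and 17.1 ± 3.21 in controls. Its constitutive counterpart Ppp1r15b was at 71.6 ± 1.97 CPM in exercised CSDS mice, 68.5 ± 2.95 in CSDS mice and 74.3 ± 1.86 in controls, and had the smallest spread of all 39, with an SD of 0.0475 on the log2 scale.

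Among the transcription factors, Xbp1 was at 61.5 ± 7.46 CPM in exercised CSDS mice, 65.1 ± 7.94 in CSDS mice and 68.5 ± 9.75 in controls. Ddit3, which encodes the pro-apoptotic factor CHOP, was at 13.7 ± 1.39 CPM in exercised CSDS mice, 12.8 ± 1.77 in CSDS mice and 14.3 ± 2.89 in controls. The symbol Ddit3 also belongs to a second identifier with almost no counts, which was left out. Atf3, another factor induced by stress, was at 1.02 ± 0.378 CPM in exercised CSDS mice, 0.948 ± 0.184 in CSDS mice and 1.1999 ± 0.406 in controls. Cebpg, a C/EBP protein that pairs with ATF4, was at 30.8 ± 4.19 CPM in exercised CSDS mice, 27.04 ± 1.59 in CSDS mice and 28.6 ± 3.47 in controls. Cebpb, a C/EBP factor of inflammation and metabolism, had the widest spread of the 39, at 7.39 ± 4.06 CPM in exercised CSDS mice, 14.4 ± 3.99 in CSDS mice and 11.6 ± 4.82 in controls (SD within groups 0.588 on the log2 scale). Atf4 was at 85.2 ± 9.25 CPM in exercised CSDS mice, 94.7 ± 2.29 in CSDS mice and 101 ± 15.4 in controls. Of the ATF4 effectors, the pseudokinase gene Trib3, which feeds back on ATF4, was at 0.425 ± 0.1604 CPM in exercised CSDS mice, 0.429 ± 0.1002 in CSDS mice and 0.387 ± 0.164 in controls. Chac1 was at 4.96 ± 0.4902 CPM in exercised CSDS mice, 6.28 ± 1.16 in CSDS mice and 5.51 ± 0.725 in controls. Sesn2, whose product restrains mTORC1, was at 20.6 ± 3.52 CPM in exercised CSDS mice, 22.8 ± 4.37 in CSDS mice and 22.5 ± 5.11 in controls.

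Several enzymes of amino acid and folate metabolism are ATF4 targets. Asns, asparagine synthetase, was at 103 ± 1.94 CPM in exercised CSDS mice, 94.97 ± 5.91 in CSDS mice and 98.6 ± 10.1 in controls. Phgdh, the first enzyme of serine synthesis, was at 88.2 ± 7.22 CPM in exercised CSDS mice, 103 ± 7.199 in CSDS mice and 91.6 ± 16.2 in controls. Psat1, the aminotransferase of serine synthesis, was at 132 ± 13.3 CPM in exercised CSDS mice, 118 ± 16.1 in CSDS mice and 128 ± 20.6 in controls. Psph, the phosphatase that ends this pathway, was at 18.6 ± 1.52 CPM in exercised CSDS mice, 19.9 ± 2.39 in CSDS mice and 18.3 ± 2.24 in controls. Shmt2, the mitochondrial enzyme that turns serine into glycine, was at 16.9 ± 3.23 CPM in exercised CSDS mice, 20.2 ± 3.297 in CSDS mice and 18.1 ± 2.205 in controls. The mitochondrial folate dehydrogenase gene Mthfd2 was at 6.47 ± 1.86 CPM in exercised CSDS mice, 6.08 ± 0.427 in CSDS mice and 6.05 ± 0.616 in controls. The 2 subunits of the cystine and glutamate exchanger were Slc7a11, at 34.9 ± 10.6 CPM in exercised CSDS mice, 31.6 ± 4.85 in CSDS mice and 28.1 ± 5.05 in controls, and the shared heavy chain Slc3a2, at 125 ± 10.5 CPM in exercised CSDS mice, 139 ± 12.2 in CSDS mice and 137 ± 10.03 in controls.

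Apart from Ero1l, the oxidase that recharges disulfide isomerases, the group means of each ER folding gene differed by less than the greatest of their SDs. Ero1l was at 42.5 ± 7.66 CPM in exercised CSDS mice, 33.5 ± 4.68 in CSDS mice and 36.6 ± 5.85 in controls. Calr, the soluble lectin chaperone, was at 385 ± 41.8 CPM in exercised CSDS mice, 414 ± 82.1 in CSDS mice and 391 ± 20.2 in controls. Its membrane-bound relative Canx was at 394 ± 65.4 CPM in exercised CSDS mice, 349 ± 36.7 in CSDS mice and 358 ± 26.98 in controls, and its partner isomerase Pdia3 was at 172 ± 29.5 CPM in exercised CSDS mice, 162 ± 28.9 in CSDS mice and 167 ± 18.4 in controls. The isomerase Pdia4 was at 49.1 ± 10.2 CPM in exercised CSDS mice, 50.9 ± 16.1 in CSDS mice and 50.6 ± 6.12 in controls. Pdia6 was at 96.1 ± 15.2 CPM in exercised CSDS mice, 106 ± 17.8 in CSDS mice and 96.1 ± 11.8 in controls, and the main disulfide isomerase gene P4hb was at 127 ± 9.42 CPM in exercised CSDS mice, 125 ± 9.36 in CSDS mice and 131 ± 12.2 in controls. Hyou1, which exchanges the nucleotide of the chaperone BiP, was at 124 ± 15.9 CPM in exercised CSDS mice, 142 ± 21.1 in CSDS mice and 121 ± 18.2 in controls. Manf, a secreted protein that protects neurons and is held in the ER with BiP, had the widest relative spread of these, at 54.1 ± 12.1 CPM in exercised CSDS mice, 49.9 ± 15.8 in CSDS mice and 49.8 ± 16.1 in controls. Sdf2l1, a partner of BiP, was at 7.68 ± 1.37 CPM in exercised CSDS mice, 9.73 ± 3.26 in CSDS mice and 10.5 ± 2.01 in controls, and Creld2, another small ER protein, at 9.22 ± 1.97 CPM in exercised CSDS mice, 10.02 ± 1.98 in CSDS mice and 10.1 ± 1.44 in controls. Of the genes for ER-associated degradation, Herpud1 was at 47.4 ± 5.53 CPM in exercised CSDS mice, 49.97 ± 4.29 in CSDS mice and 56.2 ± 9.08 in controls and Edem1, which hands misfolded glycoproteins over, was at 20.996 ± 0.668 CPM in exercised CSDS mice, 19.6 ± 1.84 in CSDS mice and 22.1 ± 1.28 in controls. Sel1l, the scaffold of the ligase complex, was at 199.9 ± 14.1 CPM in exercised CSDS mice, 191 ± 10.8 in CSDS mice and 185 ± 14.1 in controls, and Syvn1, the ligase HRD1, was at 48.7 ± 9.78 CPM in exercised CSDS mice, 53.9 ± 8.21 in CSDS mice and 49.02 ± 6.22 in controls.

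CSDS against control was the comparison of defeat without training, and as controls received no treatment it covers the whole defeat procedure. Here 0 of the 39 genes passed the test (edgeR's quasi-likelihood test, p adjusted by the Benjamini-Hochberg method over 16738 genes and called under 0.05; background 0% of genes). DESeq2 and limma voom with quality weights also called 0 (background 0% each). The smallest adjusted p among the 39 in edgeR was 0.993. At an unadjusted p under 0.05 there were 2, Edem1 and Ppp1r15b, both lower in CSDS mice, which is 5.13% of the 39 against 3.51% of all genes (1.68% lower). The median log2 fold change was -0.01 (all genes 0.00), and 19 of the 39 lay above 0 (50% of all genes).

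Edem1 lay between 16.9 and 22.4 CPM in CSDS mice (median 19.6), against between 20.6 and 23.9 in controls (median 22.04). The groups overlapped: only CSDS replicate 5 was above the control median (log2 fold change -0.18 ± 0.07, adjusted p = 0.993). Ppp1r15b lay between 64.3 and 72.7 CPM in CSDS mice (median 68.7), against between 70.8 and 76.1 in controls (median 74.8), and all 6 CSDS mice were below the control median (log2 fold change -0.12 ± 0.05, the same adjusted p). Hyou1 lay between 109 and 169 CPM in CSDS mice (median 143), against between 93.3 and 141 in controls (median 121), with 5 of 6 CSDS mice above the control median (log2 fold change 0.23 ± 0.12). Phgdh lay between 91.3 and 111 CPM in CSDS mice (median 106), against between 67.2 and 117 in controls (median 89.8), and all 6 CSDS mice were above the control median (log2 fold change 0.17 ± 0.10). Herpud1 lay between 43.1 and 55.996 CPM in CSDS mice (median 49.9), against between 48.3 and 72.2 in controls (median 52.99) (log2 fold change -0.17 ± 0.10). Control replicate 2 had the highest Herpud1 of all mice, 72.2 CPM, and the lowest Phgdh, 67.2 CPM; without it the fold changes were -0.09 ± 0.09 for Herpud1 and 0.10 ± 0.09 for Phgdh.

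The other genes with the smallest p were Chac1, with a log2 fold change of 0.19, Atf3 with -0.34 and Psph with 0.12, all with an adjusted p of 0.993. By role, 1 of 7 sensors and eIF2 regulators and 1 of 4 degradation genes were at an unadjusted p under 0.05, both lower, and 0 of the 6 transcription factors, 3 ATF4 effectors, 6 amino acid enzymes, 2 transporters and 11 folding genes. The 95% interval of the difference was narrow for most: it lay within a 1.5-fold change in either direction for 36 of the 39 and within 1.2-fold for 7. The wide ones were Atf3 (-0.89 to 0.21 on the log2 scale), Cebpb (-0.33 to 0.96) and Trib3 (-0.52 to 0.81), whose counts were low or whose mice were spread.

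**Figure D1:**
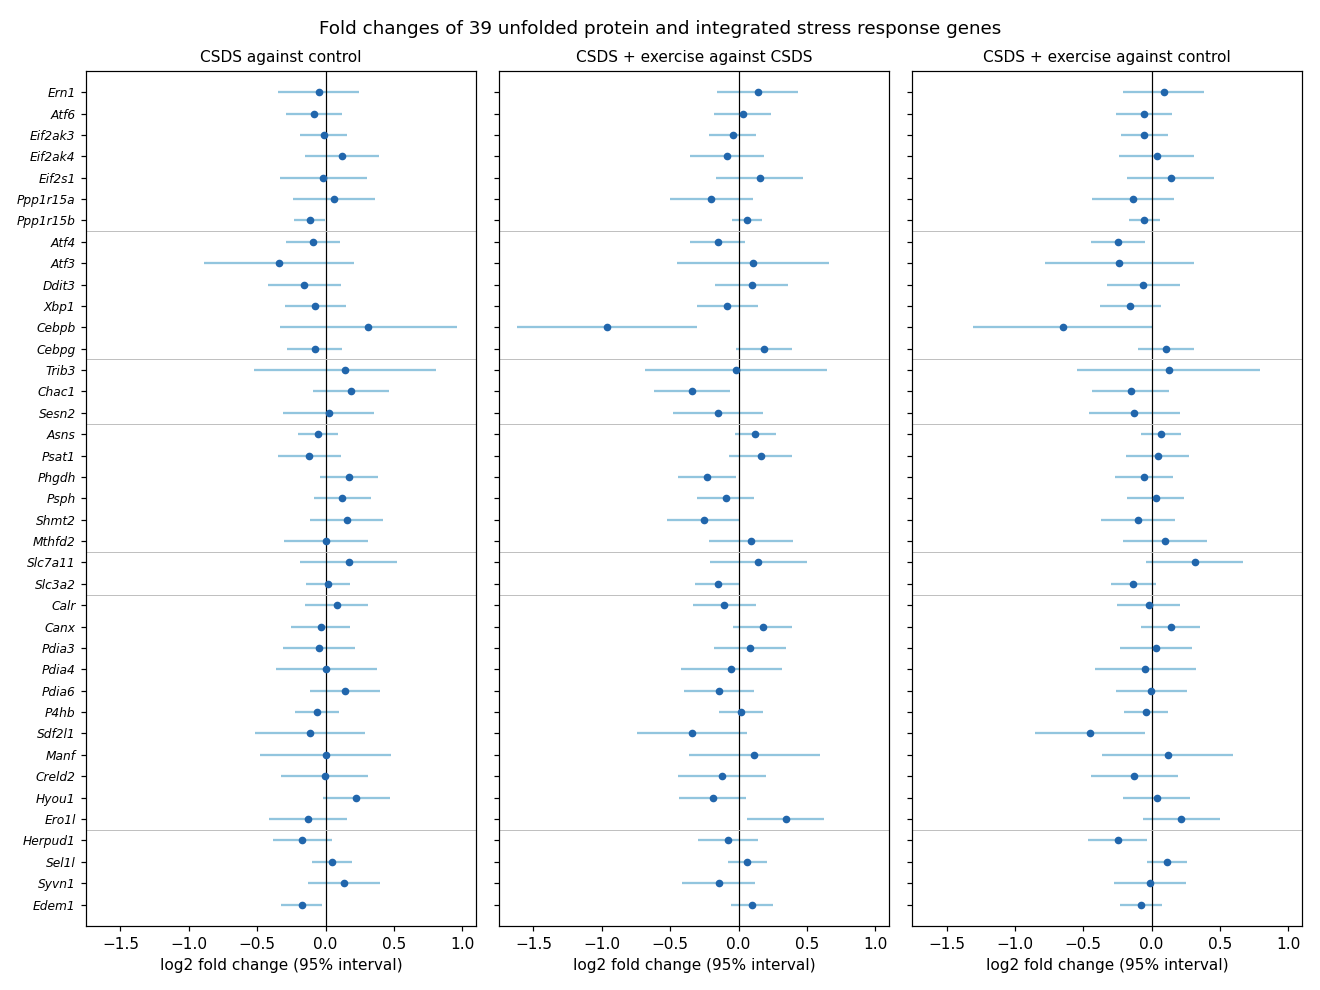
Log2 fold changes of the 39 genes in the 3 comparisons, with 95% intervals from edgeR; grey lines divide the genes by role, from sensors at the top to degradation genes at the bottom. Most intervals cross 0, and Cebpb in exercised CSDS against CSDS mice is the farthest from it, at -0.96.

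In exercised CSDS mice against CSDS mice, which asks what training changes in defeated animals, again 0 of the 39 passed (edgeR; background 0% of genes, with a smallest adjusted p of 0.0855 over all genes). There were 4 genes at an unadjusted p under 0.05, 10.3% of the 39 against 15.6% of all genes (8.1% higher, 7.46% lower). Ero1l was higher and Cebpb, Chac1 and Phgdh were lower in exercised mice. The median log2 fold change was -0.04 (all genes 0.02), and 18 of the 39 lay above 0 (53.5% of all genes). DESeq2 also called 0 of the 39 (0.89% of genes), whereas limma voom with quality weights called 14 (33.3% of genes), among them Cebpb (-1.36) and Ero1l (0.48). The 14 are 35.9% of the 39, near that background, and at an unadjusted p under 0.05 limma had 17 of the 39 (43.6%, against 44.6% of all genes), with 8 in CSDS against control mice (20.5%, against 19.5%) and 6 in exercised mice against controls (15.4%, against 19.2%).

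Cebpb showed the greatest difference. It was at 6.14, 5.74, 4.97, 15.5, 7.23 and 4.79 CPM in exercised replicates 1 to 6, against 18.2, 17.05, 15.8, 11.8, 7.58 and 15.99 CPM in CSDS replicates 1 to 6. All 6 exercised mice were below the CSDS median and 5 of them below every CSDS mouse, while exercised replicate 4 lay among the CSDS mice. The log2 fold change was -0.96 ± 0.31 (95% interval -1.62 to -0.30, adjusted p = 0.212). Without exercised replicate 4, the mouse that lay apart, it was -1.34 ± 0.28 and passed (adjusted p = 0.0328). In the other 17 of the 18 fits that left out 1 library Cebpb did not pass.

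Ero1l differed in the other direction. It was at 43.1, 45.2, 50.3, 27.8, 43.5 and 45.2 CPM in exercised replicates 1 to 6, and at 30.5, 28.8, 29.5, 39.8, 38.2 and 34.1 CPM in the CSDS mice. Here 5 of 6 exercised mice were above every CSDS mouse and replicate 4 was below them all (log2 fold change 0.35 ± 0.14, adjusted p = 0.251). Without replicate 4 the fold change was 0.42 ± 0.11 and passed (adjusted p = 0.0486). In that fit 625 genes passed over the whole table, and in the other 17 of the 18 such fits Ero1l did not pass. The 8 microglia markers summed to 554 CPM in exercised replicate 4, against 369 to 430 CPM in the other exercised mice, and to 413 to 485 CPM in CSDS mice. The part of these cells in both differences was not tested.

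Chac1 lay between 4.29 and 5.72 CPM in exercised CSDS mice (median 4.87), against between 4.499 and 7.49 in CSDS mice (median 6.32), with all 6 exercised mice below the CSDS median (log2 fold change -0.34 ± 0.13, adjusted p = 0.256). Phgdh lay between 76.3 and 96.3 CPM in exercised CSDS mice (median 88.5), against between 91.3 and 111 in CSDS mice (median 106), again with 6 of 6 below the CSDS median (log2 fold change -0.23 ± 0.10, adjusted p = 0.297). Shmt2 lay between 13.7 and 23.1 CPM in exercised CSDS mice (median 16.1), against between 16.98 and 25.3 in CSDS mice (median 19.7) (log2 fold change -0.26 ± 0.13). These 2 enzymes stand at either end of the route by which cells make serine and glycine. Of their partners between, Psat1 had a fold change of the other sign, 0.16, and Psph of the same sign, -0.09. The remaining genes with the smallest p were Slc3a2 with a log2 fold change of -0.15, Cebpg with 0.19 and Sdf2l1 with -0.34. Their adjusted p lay between 0.346 and 0.388.

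Asns was singled out after its values were seen, as the only one of the 39 whose groups did not overlap in any comparison. It lay between 100.6 and 105.8 CPM in exercised CSDS mice (median 104), against 87.3 and 100.4 CPM in CSDS mice (median 96.9). Over all genes 0.364% were higher without overlap in this comparison and 0.526% lower, with 0.155% and 0.0836% in CSDS against control mice and 0.46% and 0.102% in exercised mice against controls. The difference was small (log2 fold change 0.12 ± 0.07, adjusted p = 0.39003), and the controls, between 86.9 and 109 CPM, spanned both groups. By role, the genes at an unadjusted p under 0.05 were 1 of 6 transcription factors, 1 of 3 ATF4 effectors, 1 of 6 amino acid enzymes and 1 of 11 folding genes, and 0 of the sensors, transporters and degradation genes. The 95% interval lay within a 1.5-fold change for 32 of the 39, and outside a 2-fold change in part for Cebpb only.

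**Figure D2:**
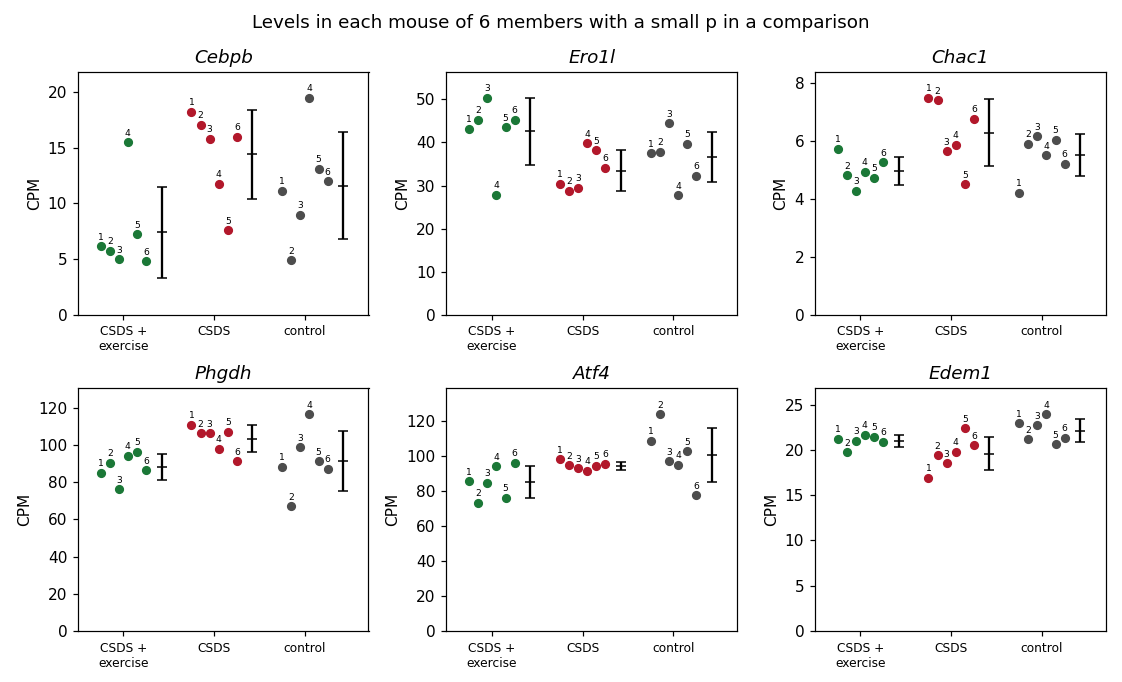
Level in each mouse (CPM, axis from 0) of 6 genes with a small unadjusted p in some comparison; numbers are replicate numbers, and the bar gives mean ± SD over 6 mice. Cebpb at 15.5 CPM and Ero1l at 27.8 CPM set exercised replicate 4 apart from the other exercised mice.

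Exercised CSDS mice against controls combines defeat and training, and shares its libraries with the other comparisons. Of the 39 genes 0 passed (edgeR; background 0.0179%, 3 genes). There were 3 at an unadjusted p under 0.05, all lower in exercised mice: Atf4, Herpud1 and Sdf2l1, or 7.69% of the 39 against 11.2% of all genes (4.39% lower). The median log2 fold change was -0.04 (all genes 0.01) and 16 of the 39 lay above 0 (52% of all genes). DESeq2 called 0 of the 39 (0.675% of genes) and so did limma voom with quality weights (1.09%).

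Atf4, the central factor of the integrated stress response, was at 85.6, 73.4, 84.9, 94.4, 76.3 and 96.4 CPM in exercised mice, against 109, 124, 97.1, 95.1, 103 and 77.8 CPM in controls. All 6 exercised mice were below the control median, but the groups overlapped, with control replicates 4 and 6 below exercised replicate 6 (log2 fold change -0.25 ± 0.09, adjusted p = 0.347). CSDS mice lay between, from 91.7 to 98.4 CPM, within a much narrower range than either other group. Herpud1 lay between 41.02 and 56.6 CPM in exercised CSDS mice (median 47.2), against between 48.3 and 72.2 in controls (median 52.99) (log2 fold change -0.25 ± 0.10, adjusted p = 0.388). Sdf2l1 lay between 6.52 and 10.3 CPM in exercised CSDS mice (median 7.26), against between 7.33 and 13.4 in controls (median 10.6), with all 6 exercised mice below the control median (log2 fold change -0.45 ± 0.19, adjusted p = 0.393).

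Control replicate 2, the library with neocortical markers, had the highest Atf4 (124 CPM), Xbp1 (83.8 CPM) and Herpud1 of all 18 mice. Without it the fold changes were -0.18 ± 0.09 for Atf4, -0.16 ± 0.09 for Herpud1 and -0.37 ± 0.20 for Sdf2l1, and 1 of the 39 was at an unadjusted p under 0.05, Cebpb (1974 of 16833 genes). The part of the neocortical tissue in these values was not tested. The next genes in order of p were Cebpb with a log2 fold change of -0.65, Slc7a11 with 0.31, Slc3a2 with -0.13, Sel1l with 0.11 and Ero1l with 0.22. The 2 subunits of the cystine exchanger thus had fold changes of opposite sign, neither past the test. By role, 1 of 6 transcription factors, 1 of 11 folding genes and 1 of 4 degradation genes were at an unadjusted p under 0.05, all lower, and 0 of the rest.

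In the comparisons with exercised mice, the fold changes of these genes followed the GC content of their transcripts. In exercised against CSDS mice the correlation across the 39 genes was r = -0.80, as a description, and -0.75 without Cebpb, the gene with the highest GC content (67.2%); over 16421 genes of the table it was -0.54. Of the 13 genes with the highest GC content (54.8% or more), 12 had a negative fold change with a median of -0.15, and of the 13 with the lowest (49.2% or less), 1 did, with a median of 0.12. Cebpb, Sdf2l1, Chac1, Shmt2 and Phgdh are in the first group, and Ero1l (44.7%), Canx (42.3%) and Slc7a11 (41.9%, the lowest) in the second. Against controls the correlation was -0.68 for exercised mice (-0.57 without Cebpb, -0.44 over all genes). For CSDS mice it was weaker and of the other sign, 0.42 (0.29 without Cebpb, 0.15 over all genes).

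The libraries themselves differed in this way across the whole table. The slope of log2 level on GC content, per 10 percentage points, lay between -0.44 and -0.12 in 5 exercised mice and at 0.19 in exercised replicate 4, against -0.15 to 0.28 in CSDS mice and -0.09 to 0.31 in controls. With each library's trend on GC content removed, the correlation across the 39 genes in exercised against CSDS mice was -0.16. Cebpb then had a log2 fold change of -0.45 ± 0.20, Ero1l of 0.18 ± 0.09, Chac1 of -0.13 ± 0.13, Phgdh of -0.10 ± 0.08 and Shmt2 of -0.03 ± 0.08. Of the 39, 1 was at an unadjusted p under 0.05 in that comparison after correction, Cebpb (5.57% of all genes), 0 in CSDS against control (4.03%) and 3 in exercised mice against controls (7%). Those 3 were Herpud1 (-0.25), Ppp1r15b (-0.13) and Edem1 (-0.18), whereas Atf4 (-0.17 ± 0.11) and Sdf2l1 (-0.35 ± 0.20) were no longer among them. With exercised replicate 4 left out as well, Cebpb was at -0.65 ± 0.18 and Ero1l at 0.23 ± 0.08 in exercised against CSDS mice. There 0 of the 39 passed, as did 0 of all 16856 genes. The slope and the group moved together, and what made the libraries differ in slope was not tested.

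**Figure D3:**
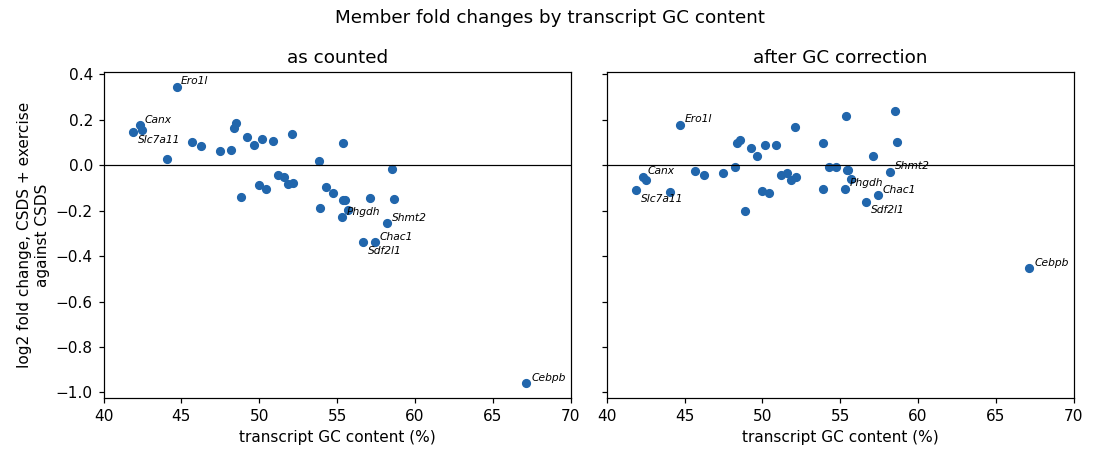
Log2 fold change in exercised CSDS against CSDS mice of each of the 39 genes by the median GC content of its transcripts (%), as counted (left) and with each library's GC trend removed (right). The points fall from left to right as counted (r = -0.80) and lie close to level after correction (r = -0.16), with Cebpb lowest in both.

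Between mice of the same group, 3 of 9 pairs of genes varied together by a test against no correlation. How often other pairs of genes in these libraries do so was not tested. Over 18 mice with group means removed, the lectin chaperone Calr and the disulfide isomerase Pdia4 had r = 0.92 on the log2 scale (permutation test within groups, two-sided, p = 5e-05, adjusted over 9 pairs 0.00045; Spearman's rho 0.77, adjusted p = 0.0099). Without the 2 mice farthest from the median of Calr r was 0.86, and within exercised, CSDS and control mice it was 0.94, 0.95 and 0.71. Sdf2l1 and Creld2 had r = 0.71 (permutation test, adjusted p = 0.00585; rho 0.68; 0.63 without the 2 farthest mice). Xbp1 and Herpud1, a gene that XBP1 is known to induce, had r = 0.66 (permutation test, adjusted p = 0.0207; rho 0.60; 0.51 without the 2 farthest mice and 0.54 without control replicate 2). After GC correction the 3 values were 0.88, 0.72 and 0.67.

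The other 6 pairs did not pass by Pearson's r as counted (permutation test, adjusted over 9 pairs). Manf and Creld2 had r = 0.51 (adjusted p = 0.0735), but their Spearman's rho of 0.57 passed (permutation test, adjusted p = 0.0456), and so did r = 0.64 after GC correction (permutation test, adjusted p = 0.0228). Atf4 and its target Asns had r = 0.55 (adjusted p = 0.092), with 0.69 in exercised mice, -0.43 in CSDS mice and 0.75 in controls, and 0.18 without the 2 mice farthest from the median of Atf4; rho was 0.38, and r after GC correction was 0.68 (permutation test, adjusted p = 0.0254). Hyou1 and Pdia6 had r = 0.24 (adjusted p = 0.47), Atf3 and Ppp1r15a 0.26 (adjusted p = 0.47), Ddit3 and Chac1 -0.11 (adjusted p = 0.767) and Psat1 and Phgdh -0.08 (adjusted p = 0.828).

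**Figure D4:**
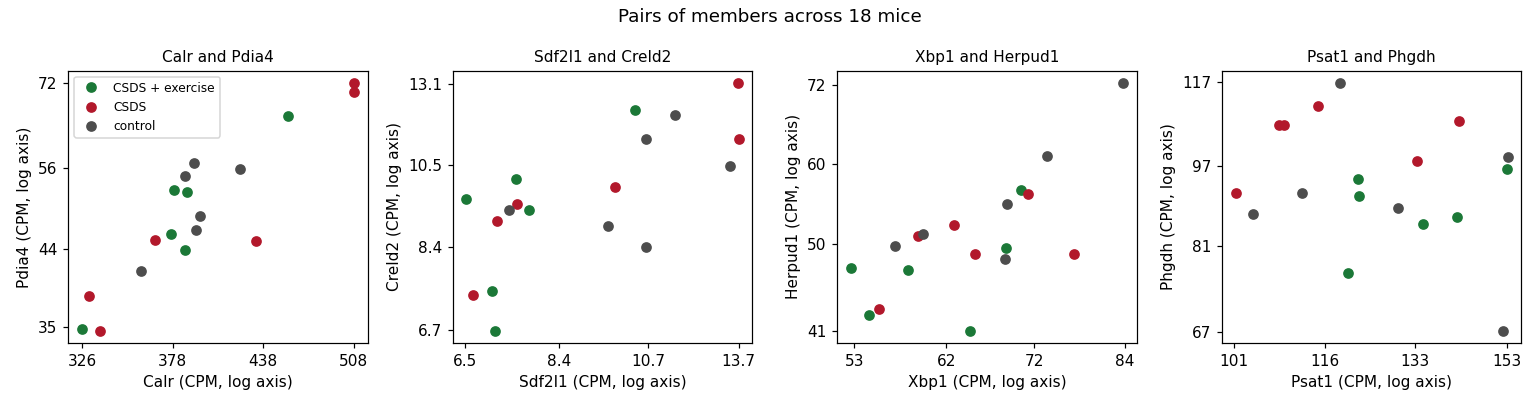
Levels of 4 pairs of genes in 18 mice (CPM, log axes), coloured by group. Calr and Pdia4 rise together in all groups, with CSDS replicates 3 and 5 at the upper end (508 CPM of Calr), whereas Psat1 and Phgdh show no common trend.

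A few mice were high in some of the chaperones, but not in all. Calr was at 385, 379, 387, 377, 326 and 456 CPM in exercised replicates 1 to 6, 367, 433, 508, 336, 508 and 329 in CSDS replicates and 391, 359, 393, 422, 395 and 386 in controls. CSDS replicates 3 and 5 and exercised replicate 6 were the highest, and the same 3 mice were highest for Pdia4, at 70.01, 71.9 and 65.3 CPM, with all other mice between 34.6 and 56.8 CPM. Sdf2l1 was at 13.7 and 13.7 CPM in CSDS replicates 3 and 5, against 6.63 to 9.79 CPM in the other CSDS mice, and at 10.3 CPM in exercised replicate 6, with the other exercised mice at 7.74 CPM or less. Control replicates reached 13.4 CPM of Sdf2l1, and 4 of the 6 were above exercised replicate 6. Hspa5, which encodes BiP and is not among the 39, was at 297, 297 and 302 CPM in CSDS replicates 3 and 5 and exercised replicate 6, and at most 264 CPM in the others. Pdia6 was at 128, 124 and 117 CPM in these mice, and at most 111 in the others. The other folding genes did not all follow. In the same order of mice, Canx was at 337, 409 and 465 CPM and reached 470 CPM in exercised replicate 3. Hyou1 was at 169, 130 and 134 CPM and reached 157 CPM in CSDS replicate 2. Pdia3 was at 182, 203 and 213 CPM and reached 198 CPM in control replicate 1. Manf was at 53.0, 77.6 and 67.4 CPM, with 65.9 CPM in control replicate 2. Creld2 was at 13.1, 11.3 and 12.2 CPM, with 12.04 CPM in control replicate 1. Ero1l was at 29.5, 38.2 and 45.2 CPM and reached 50.3 CPM in exercised replicate 3. P4hb was at 137, 134 and 133 CPM in these mice and reached 144 CPM in controls.

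Markers of other tissue differed in the same libraries. The 12 choroid plexus markers summed to 6971 and 8737 CPM in CSDS replicates 3 and 5, against 106 to 1928 CPM in the other CSDS mice, and to 4283 CPM in exercised replicate 6, which also had the highest thalamic marker sum of all mice (953 CPM over 8 markers). Exercised replicate 2 had 6807 CPM of choroid plexus markers with 379 CPM of Calr, and control replicates 1 and 4 had 5634 and 5252 CPM with 391 and 422 CPM. Thalamic markers summed to 636 CPM in control replicate 3, 336 in exercised replicate 3 and 317 in control replicate 1, with 393, 387 and 391 CPM of Calr. By group the sum ranged from 71.8 to 6807 CPM in exercised mice, 106 to 8737 in CSDS mice and 22.6 to 5634 in controls, with 0 of the 12 markers at 0 in any library. The 8 oligodendrocyte markers summed to 9992 CPM in exercised replicate 6, the highest of all mice, to 7992 CPM in CSDS replicate 5, the highest of the CSDS mice, and to 6647 CPM in CSDS replicate 3, which lay within the range of the other CSDS mice. The part of choroid plexus, thalamus and oligodendrocytes in the chaperone levels was not tested; without CSDS replicates 3 and 5, Calr and Pdia4 had r = 0.82 over the remaining mice.

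**Figure D5:**
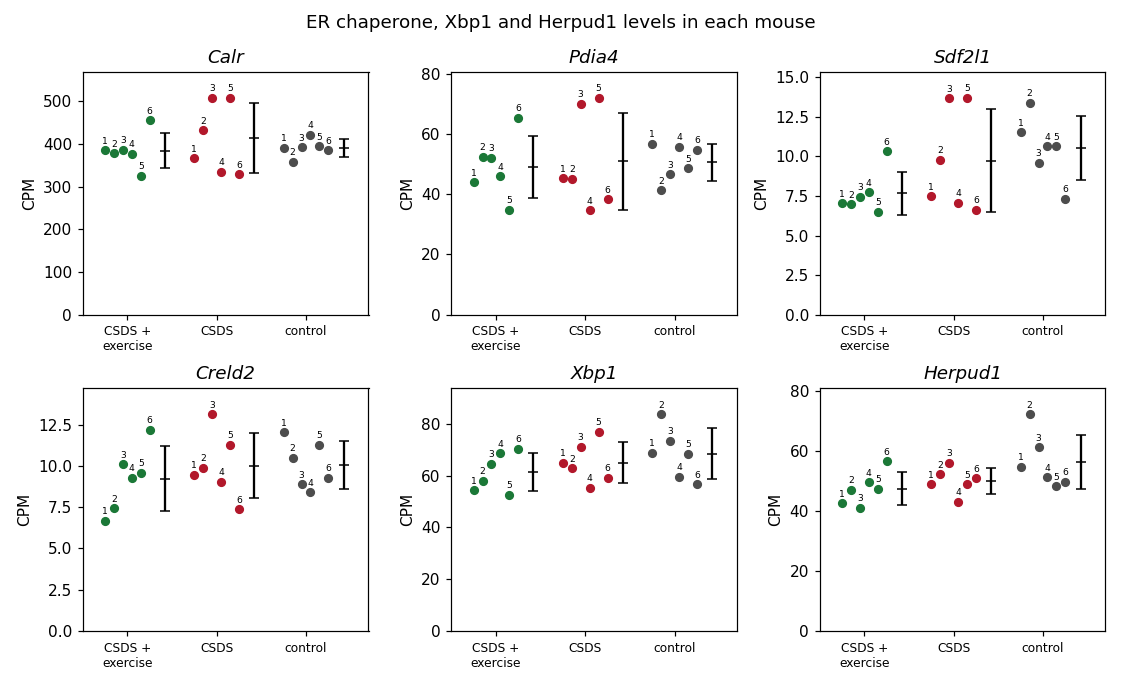
Level in each mouse (CPM, axis from 0) of 4 ER folding genes, Xbp1 and Herpud1; numbers are replicate numbers, and the bar gives mean ± SD over 6 mice. CSDS replicates 3 and 5 lie highest for Calr and Pdia4, at 508 CPM and at up to 71.9 CPM, and control replicate 2 for Xbp1 and Herpud1, at 83.8 and 72.2 CPM.

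Among 11773 genes with a mean of at least 5 CPM, those whose levels followed Calr most closely over the 18 mice, with group means removed, were Pdia4 (r = 0.92), Hspa5 (0.84), Zfp969 (0.83), Trf (0.83) and Car2 (0.82). Those closest to Sdf2l1 were Cryab (0.81), Tubb4b (0.81), Calr (0.80), Tmem185a (0.78) and Xbp1 (0.78). Those closest to Phgdh were Acot1 (0.93), Rpa1 (0.89), Cotl1 (0.88), Cog2 (0.85) and Kyat1 (0.84). Genes of the ER thus stood beside Trf and Car2 near Calr, and beside Cryab near Sdf2l1, while Phgdh had none of the 39. Oligodendrocytes express Trf, Car2 and Cryab, but from which cells these transcripts came here was not tested.

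Further genes of the pathway, in lists outside the 39, were read from the same fit. Of 53 other ER and unfolded protein response genes, 0 passed in any comparison in edgeR, while in exercised against CSDS mice DESeq2 called 1, Cdk2ap2, and limma voom with quality weights called 21 (39.6%, against 33.3% of all genes), with 1 in exercised mice against controls. At an unadjusted p under 0.05 there were 7 in exercised against CSDS mice (5 higher, 2 lower; 13.2%, against 15.6% of all genes), 0 in CSDS against control mice (3.51% of all genes) and 2 in exercised mice against controls (1 higher, 1 lower; 3.77%, against 11.2%). The median log2 fold changes were 0.11, -0.03 and 0.04 in the same order, with 0.02, 0.00 and 0.01 for all genes; after GC correction the first was 0.00. Cdk2ap2, a CDK2-associated protein, had the smallest p of both lists, at 9.08 ± 0.9102 CPM in exercised CSDS mice and 12.4 ± 0.977 in CSDS mice (-0.45 ± 0.10, adjusted p = 0.151). Crebrf, a regulator of the ER factor CREB3, was at 38.8 ± 7.65 CPM in exercised CSDS mice and 28.98 ± 4.68 in CSDS mice (0.42 ± 0.14, adjusted p = 0.2203). Ficd, which modifies and silences BiP, was at 13.4 ± 2.08 CPM in exercised CSDS mice and 17.6 ± 2.76 in CSDS mice (-0.40 ± 0.14, adjusted p = 0.226), and Mbtps2, a protease that releases ATF6, was at 31.1 ± 3.86 CPM in exercised CSDS mice and 24.8 ± 4.97 in CSDS mice (0.32 ± 0.13, adjusted p = 0.251). With the GC trend removed, Cdk2ap2 was at -0.20, Crebrf at 0.21, Ficd at -0.27 and Mbtps2 at 0.14 on the log2 scale.

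In CSDS against control mice the smallest p in that list belonged to Dnajc10, a reductase of the ER, with a log2 fold change of -0.15, to Wfs1, the ER membrane protein wolframin that also marks CA1 neurons, with 0.47, to Ficd with 0.23 and to Crebrf with -0.23. Their adjusted p was 0.993. Crebrf and Ficd had fold changes of the other sign in exercised against CSDS mice, but both comparisons use the CSDS libraries. In exercised mice against controls they belonged to Cdk2ap2 with -0.31, Ssr1, a subunit of the translocon-associated complex, with 0.22, Edem3, a mannosidase of ER degradation, with 0.18 and the factor Creb3 with 0.15 (adjusted p from 0.29 to 0.467).

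Of 50 other integrated stress response genes 48 were tested and 0 passed in any comparison in edgeR or DESeq2, while limma called 19 in exercised against CSDS mice (39.6%, against 33.3% of all genes). At an unadjusted p under 0.05 there were 7 in exercised against CSDS mice (3 higher, 4 lower; 14.6%, against 15.6% of all genes), 1 in CSDS against control mice (lower; 2.08%, against 3.51%) and 5 in exercised mice against controls (1 higher, 4 lower; 10.4%, against 11.2%). Eif4ebp1, a translation repressor induced by ATF4, was at 1.25 ± 0.227 CPM in exercised CSDS mice and 1.83 ± 0.177 in CSDS mice (-0.55 ± 0.17, adjusted p = 0.201), and its difference was much the same after GC correction (-0.54). Eif2b2, a subunit of the exchange factor that phosphorylated eIF2 blocks, was at 27.1 ± 1.34 CPM in exercised CSDS mice and 31.01 ± 1.49 in CSDS mice (-0.19 ± 0.07, adjusted p = 0.242), and was at -0.02 after GC correction. Slc38a2, an amino acid transporter induced by starvation, was at 111 ± 12.3 CPM in exercised CSDS mice and 91.05 ± 13.5 in CSDS mice (0.28 ± 0.10, adjusted p = 0.242) and Cbs, which makes cystathionine from homocysteine and serine, at 32.6 ± 3.24 CPM in exercised CSDS mice and 37.96 ± 3.39 in CSDS mice (-0.22 ± 0.08, adjusted p = 0.247). After GC correction Slc38a2 was at 0.12 and Cbs at -0.07.

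In CSDS against control mice Slc38a2 was at 91.05 ± 13.5 CPM in CSDS mice and 108 ± 11.9 in controls (-0.25 ± 0.10, adjusted p = 0.993). The serine and alanine transporter Slc1a4 had a log2 fold change of 0.22, Cbs of 0.15 and the eIF2 kinase gene Eif2ak1 of -0.09 (adjusted p = 0.993 each). In exercised mice against controls Ddit4, an inhibitor of mTORC1 induced by stress and glucocorticoids, was at 74.99 ± 22.3 CPM in exercised CSDS mice and 98.9 ± 27.4 in controls (-0.40 ± 0.19, adjusted p = 0.441). Lars, which charges tRNA with leucine, had a log2 fold change of 0.15, Eif2b2 of -0.18 and Eif4ebp1 of -0.36 (adjusted p from 0.369 to 0.436).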

How the data were processed

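Hippocampal RNA of 18 mice was sequenced as poly(A)-enriched stranded libraries, per the labels' protocols. The authors deposited a table of estimated counts (expected counts, not normalized) per gene, made with fastp, HISAT2 and RSEM on GRCm38 (mm10), per the submitters' processing notes; no source used here gives the versions, the annotation release or the strand setting. RSEM shares reads between similar genes, and antisense genes may share reads.

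Counts were rounded to whole numbers, filtered (filterByExpr, minimum count 10, minimum total 15), scaled by TMM and tested in edgeR 4.0.16 (R 4.3.3; quasi-likelihood F test, all 18 libraries, 1 term per group), with Benjamini-Hochberg adjustment over all 16738 genes tested; a gene passed at an adjusted p under 0.05. Log2 CPM used a prior count of 2. For GC correction, a spline of each library's deviations on transcript GC content (98.1% of genes tested had a value) entered as an offset. Correlations used 100000 permutations within groups. Scripts were tested on simulated data. Every pair of replicates differed beyond sampling noise, by a chi-square per gene of at least 9.67. Nothing in the labels says that mice of a group came from separate cages, so p-values measure the spread between these mice.

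The members and lists were chosen with earlier results of these data known. Named are the 8 members with the smallest p per comparison, 4 further pathway genes per list and comparison and the 5 genes most like Calr, Sdf2l1 and Phgdh; others are said to be chosen after their values were seen, and 1 gene like Sdf2l1 is not reported here. Alternatives were DESeq2 1.42.0, limma 3.58.1 voom with quality weights, RLE or library size scaling, no filter or 1 CPM in 6 libraries, the replicate block, GC correction, only the groups compared, and each library left out in turn. Further settings were chosen after seeing the data: GC correction without control replicate 2 or exercised replicate 4, and the correlations without CSDS replicates 3 and 5.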

Additional observations from a re-analysis of the deposited data

Results flagged for a closer look

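Among the genes named by p in a comparison (17 genes in 3 groups of 6 mice, 51 groups), 4 groups held a mouse far from the other 5, where chance alone marks about 1 group in 20. Cebpb was at 15.5 CPM in exercised CSDS replicate 4, with the other exercised mice between 4.79 and 7.23 CPM. Ero1l was at 27.8 CPM in the same mouse, with the others between 43.1 and 50.3 CPM. That mouse was also the exercised library whose level rose with GC content, at 0.19 on the log2 scale per 10 percentage points, and it had the highest microglia (554 CPM) and dentate granule cell (866 CPM) marker sums of all 18 mice. Sdf2l1 was at 10.3 CPM in exercised CSDS replicate 6, with the others between 6.52 and 7.74 CPM, and that library had the highest thalamic and oligodendrocyte marker sums. Cebpg was at 30.04 CPM in CSDS replicate 4, with the other CSDS mice between 25.2 and 26.9 CPM. The causes were not tested.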

How the results depend on the processing

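The replicate numbers do not pair the mice: the correlation of same-numbered mice's deviations lay between -0.465 and 0.255. With the replicate number as a block, 0 genes and 0 of the 39 passed in every comparison. Of the 39, 3, 0 and 3 were then at an unadjusted p under 0.05 in exercised against CSDS, CSDS against control and exercised against control mice (1907, 375 and 1388 of all 16738 genes). With the block and GC correction these were 1, 0 and 1 (688, 442 and 912 of all genes). Under the block Manf and Creld2 had r = 0.46 (no longer under an unadjusted 0.05), Atf4 and Asns 0.56 and Atf3 and Ppp1r15a 0.53 (both now under it).

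DESeq2 called 149 genes in exercised against CSDS mice and 113 in exercised mice against controls, and limma voom with quality weights 5567 and 183. Limma called 14 of the 39 in exercised against CSDS mice, and 17, 8 and 6 were at an unadjusted p under 0.05 in the 3 comparisons in the order above (43.6%, 20.5% and 15.4%, against 44.6%, 19.5% and 19.2% of all genes). Without a filter on low counts 2 genes passed in exercised against CSDS mice and 0 in exercised mice against controls. In CSDS against control mice 1 of the 39 was then at an unadjusted p under 0.05 (1336 of 31330 genes). With a filter of 1 CPM in 6 libraries 0 passed in exercised mice against controls, and with only the groups compared 1 and 0 passed in exercised against CSDS mice and against controls. GC correction gave 1 and 0 for these, with 1 and 0 of the 39 at an unadjusted p under 0.05 in exercised against CSDS and CSDS against control mice (5.57% and 4.03% of all genes). GC correction without control replicate 2 gave 0 genes in exercised mice against controls and the same 1 and 0 of the 39 (1193 and 466 of 16833 genes). GC correction without exercised replicate 4 gave 1 gene passing in exercised mice against controls. At an unadjusted p under 0.05 it gave 5 of the 39 in that comparison (1962 of 16856 genes) and 1 of the 39 in CSDS against control mice (757 of 16856). That last setting reversed Eif2b2 in exercised against CSDS mice, to 0.0029, and Sel1l in exercised mice against controls, to -0.018.

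Leaving out 1 library at a time, genes passing ranged from 0 to 625 in exercised against CSDS mice and from 0 to 13 in exercised mice against controls, with the highest of both without exercised replicate 4; without CSDS replicate 5, 43 passed in the first. Of the 39, 0 to 2 passed in exercised against CSDS mice, and 2 to 12, 0 to 2 and 1 to 7 were at an unadjusted p under 0.05 in exercised against CSDS, CSDS against control and exercised against control mice. Over all genes these last counts ranged from 1676 to 4441, 401 to 956 and 1351 to 3522, of 16833 to 16889 genes tested. Without exercised replicate 4, 12 and 7 of the 39 stood beside 4441 and 3522 of 16856 genes in the 2 comparisons with exercised mice. Manf and Creld2 had r from 0.44 to 0.58, Atf4 and Asns from 0.35 to 0.63, Psat1 and Phgdh from -0.18 to 0.28 and Ddit3 and Chac1 from -0.21 to 0.059. Values of the other sign were 0.28 without control replicate 2 and 0.01 without control replicate 4 for Psat1 and Phgdh, and 0.059 without control replicate 1 and 0.05 without CSDS replicate 5 for Ddit3 and Chac1. Psat1 and Phgdh had r = 0.040 with library size scaling and 0.10 after GC correction, and Ddit3 and Chac1 0.27 after it. Atf4 and Asns had 0.55 with RLE scaling and 0.68 after GC correction, both under an unadjusted 0.05, and Manf and Creld2 0.45 without CSDS replicates 3 and 5. The median fold change of the 39 moved by less than 0.06 on the log2 scale under all 30 settings it was run in. That limit is the SD between single mice of their median deviation from the group mean. It is wider than the error of a difference between group means. Of the values of single named genes, 1447 kept their direction and their side of the threshold, 21 newly passed it and 2 reversed. The causes were not tested.

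Low counts limit Trib3 and Atf3 most; the eIF2 and IRE1 steps themselves, on protein and splicing, were not measured.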

Other observations

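With each library's GC trend removed, the genes that followed Calr most closely between mice were Hspa5 (r = 0.88), Zfp969 (0.88), Pdia4 (0.88), Sdc2 (0.83) and Pdia6 (0.81), so 3 ER chaperone genes stood among the 5. For Sdf2l1 they included Cryab (0.87), Pdia3 (0.85), Nme5 (0.84) and Msrb3 (0.82). For Phgdh they were Acot1 (0.88), Hopx (0.84), Thumpd3 (0.81), Cotl1 (0.80) and Efnb3 (0.80); Hopx is a marker of radial astrocytes in the dentate gyrus, and Phgdh is known to be made mainly by astrocytes. The 12 astrocyte markers summed to 5432 to 6151 CPM in exercised mice, 4967 to 5872 CPM in CSDS mice and 5057 to 6107 CPM in controls.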
